A study of Mus musculus with 16 samples.

Results

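Intraepithelial lymphocytes are described here through 7 genes, Cd3e, Cd3g, Cd8a, Cd7, Gzma, Gzmb and Itgae, of the 24421 genes counted in isolated mouse intestinal epithelium. The 7 were chosen by name, as genes that lymphocytes of the gut epithelium are known to express, and their rows were read from each library. The study isolated epithelium from the jejunum and the ileum of wild type C57BL6/J mice before weaning (postnatal day 6, P6) and after it (postnatal day 36, P36) and sequenced its RNA in bulk. There were 16 libraries in 4 groups of 4, the P6 jejunum, P6 ileum, P36 jejunum and P36 ileum. Each mouse gave 1 jejunum and 1 ileum library, and each age had 2 female mice (replicates 1 and 2) and 2 male mice (replicates 3 and 4), so that a replicate number names the same mouse in both regions of an age. No mouse was sampled at both ages. The epithelium was released with EDTA and was not sorted, so lymphocytes lodged between the epithelial cells, and cells from below them, could enter a library. The paper's methods allow a longer EDTA incubation at P36 than at P6, and its part in the values was not tested.

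Intraepithelial lymphocytes are mostly CD8-bearing T cells that sit between the epithelial cells of the gut, and they settle there largely after birth. CD3 epsilon and CD3 gamma, encoded by Cd3e and Cd3g, are signalling chains of the T cell receptor complex. Cd8a encodes the CD8 alpha chain, which many intraepithelial lymphocytes carry as a homodimer without CD8 beta (Cd8b1). Cd7 encodes a surface protein of T and natural killer cells, and Itgae the integrin alpha chain CD103, which binds E-cadherin on the epithelium. Gzma and Gzmb encode granzymes A and B, serine proteases of cytotoxic granules.

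RefSeq promoter windows (build GRCm38.p6, from 250 bases before to 50 bases after a start site) were matched by symbol for 5 of the 7 genes, Cd3e, Cd3g, Cd8a, Gzma and Gzmb; Cd7 and Itgae had no match. The windows of the 2 granzyme genes, which held the highest levels per kilobase in the P36 jejunum, and of Cd8a are shown 5′ to 3′ on the strand of the gene, with motif matches in capitals. Gzma lies at chr13:113100932-113101231 on the minus strand, Gzmb at chr14:56262285-56262584 on the minus strand and Cd8a at chr6:71373177-71373476 on the plus strand.
Gzma: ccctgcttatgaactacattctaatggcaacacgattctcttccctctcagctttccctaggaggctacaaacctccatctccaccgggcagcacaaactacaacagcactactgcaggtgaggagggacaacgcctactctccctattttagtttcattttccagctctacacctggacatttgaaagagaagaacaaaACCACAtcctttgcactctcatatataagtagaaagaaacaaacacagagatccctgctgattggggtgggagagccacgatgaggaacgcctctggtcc
Gzmb: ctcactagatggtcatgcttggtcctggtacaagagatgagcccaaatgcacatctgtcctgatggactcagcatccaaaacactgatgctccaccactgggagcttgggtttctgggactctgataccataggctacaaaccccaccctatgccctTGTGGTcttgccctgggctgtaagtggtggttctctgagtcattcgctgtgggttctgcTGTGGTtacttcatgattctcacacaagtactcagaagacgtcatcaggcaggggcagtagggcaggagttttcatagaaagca
Cd8a: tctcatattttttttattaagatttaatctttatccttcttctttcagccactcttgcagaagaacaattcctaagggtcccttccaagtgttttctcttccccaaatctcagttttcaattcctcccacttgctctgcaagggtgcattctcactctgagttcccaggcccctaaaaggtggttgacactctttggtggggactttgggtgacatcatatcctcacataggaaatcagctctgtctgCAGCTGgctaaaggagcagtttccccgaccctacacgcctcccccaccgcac
Of 5 motifs searched on both strands, TGTGGT, the core bound by RUNX factors, occurred 1 time before the Gzma start (position -50, as ACCACA on the other strand). It occurred 2 times before the start site of the Gzmb window (positions -93 and -34). The same 6 letters were in 16.8% of the 32851 windows in the table. The Gzmb window, from 56262285, lies wholly before the counted Gzmb gene, which ends at 56262260 on the minus strand. Its start site is thus not that of the counted gene. CAGCTG, an E-box read alike on both strands, occurred 1 time in the Cd8a window at position -2, 1 time in the Cd3g window at position 24, and in 16.3% of all windows. AGGAAG, a core of ETS factors, was found 2 times in the Cd3e window, at positions -224 and -17, and in 35.4% of all windows. GGTGTGA (3.98% of windows) and TATAAA (13.6%) matched none of the 5 windows. The motifs do not overlap in these windows, and a match of letters is a description and not a binding site.

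Library totals ran from 12159237 to 25947276 counts. Levels are given as CPM, counts set relative to the library size after scaling by the trimmed mean of M-values (TMM). Cdh1 (E-cadherin) ranged from 792 to 1064 CPM over the 16 libraries, and the summed CPM of 8 epithelial markers from 4055 to 7049 at P6 and from 12736 to 19210 at P36. The 7 lymphocyte genes together summed to between 1.58 and 127.5 CPM. Some libraries stood apart. P36 jejunum replicates 1 (female) and 3 (male) held all 7 genes above replicates 2 and 4, and the counts of calls for the 7 genes and the lists of lymphocyte genes that rest on them are given also without them. P6 ileum replicate 2 held 470.6 CPM of 12 smooth muscle and fibroblast markers, against 21.5 to 45.8 in the other P6 ileum libraries, and P6 ileum replicate 4 had the lowest epithelial sum (4055 CPM). In bulk RNA, fewer cells of a type and less RNA per cell cannot be told apart.

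**Figure D1:**
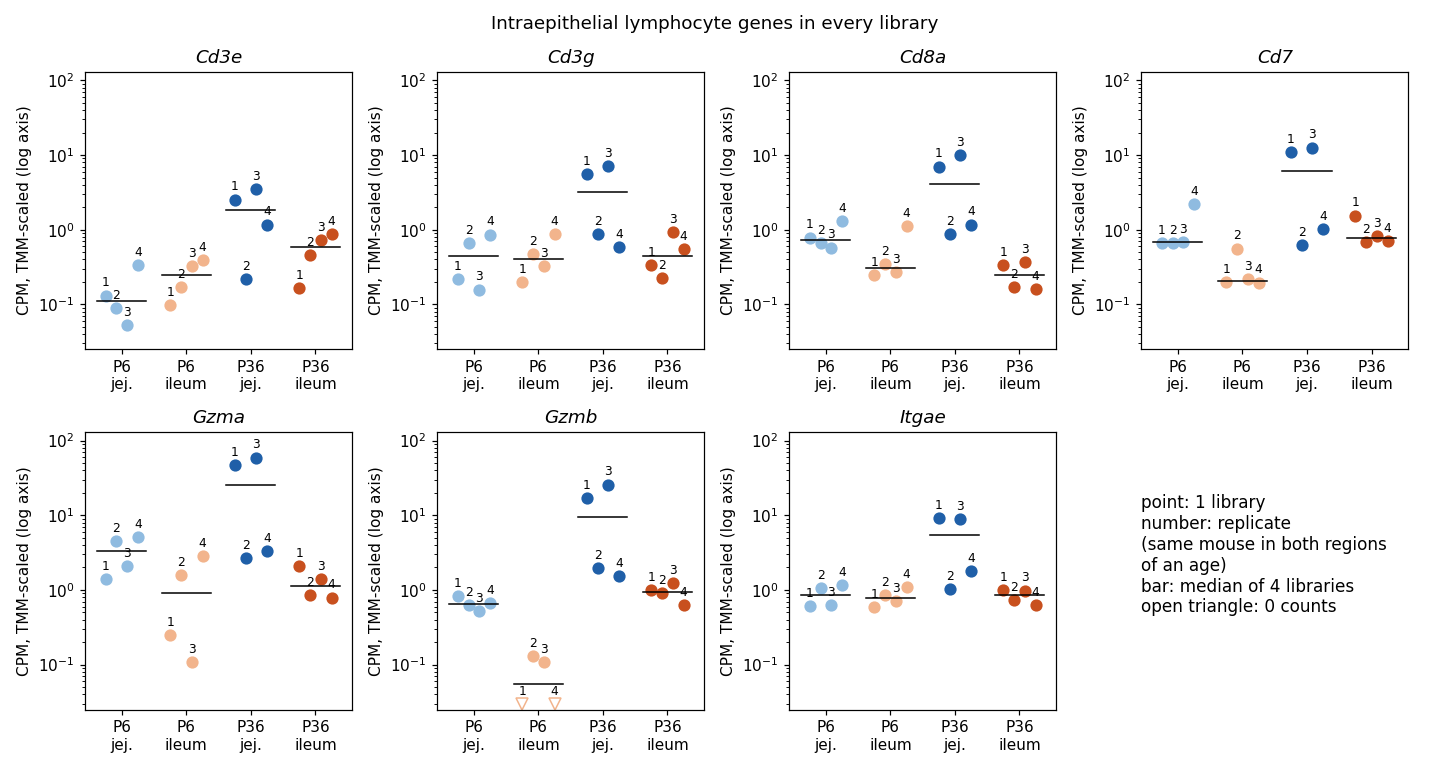
CPM (log axis) of each of the 7 genes in each of the 16 libraries, 1 point per library with its replicate number; the bar is the median of the 4 libraries. P36 jejunum replicates 1 and 3 were the highest of their group for all 7 genes, while replicates 2 and 4 lay between 0.221 and 3.36 CPM.

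The 2 CD3 chain genes, neighbours on chromosome 9 (Cd3e from 44998743 to 45009590 and Cd3g from 44969572 to 44980431, mm10, both on the minus strand), had few counts at P6. Cd3e was at 2.53, 0.221, 3.46 and 1.17 CPM in P36 jejunum replicates 1 to 4, from 43, 5, 77 and 22 counts. In the P36 ileum of the same mice it was at 0.166, 0.454, 0.735 and 0.871 CPM. At P6 it had 1 to 7 counts per library in the jejunum (0.0525 to 0.335 CPM) and 2 to 8 per library in the ileum (0.0987 to 0.392 CPM). Replicate 2 of the P36 jejunum thus lay inside the P6 range, and the other 3 lay above every P6 library. Mouse 2 had more Cd3e in the ileum than in the jejunum, and mouse 4 had 1.35 times as much in the jejunum as in the ileum.

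Cd3g was at 5.59, 0.882, 7.18 and 0.586 CPM in P36 jejunum replicates 1 to 4 (95, 20, 160 and 11 counts). Its P36 ileum values were 0.332, 0.227, 0.939 and 0.554 CPM. At P6 it ranged from 0.158 to 0.862 CPM in the jejunum and from 0.197 to 0.883 CPM in the ileum. Replicates 1 and 3 of the P36 jejunum were above every other library, whereas replicates 2 and 4 fell among the P6 and ileum values.

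Cd8a (chromosome 6, 71373427 to 71379171, plus strand) was at 7.00, 0.882, 10.1 and 1.17 CPM in P36 jejunum replicates 1 to 4, from 119, 20, 225 and 22 counts. In the P36 ileum it was at 0.332, 0.170, 0.368 and 0.158 CPM, from 2 to 9 counts per library. All 4 P36 jejunum libraries lay above all 4 P36 ileum libraries, the lowest at 0.882 CPM against the highest at 0.368 CPM. At P6 the jejunum held 0.785, 0.669, 0.578 and 1.29 CPM, and the ileum 0.247, 0.345, 0.271 and 1.13 CPM. P36 jejunum replicates 2 and 4 were therefore within the P6 jejunum range, and the ranges of the ileum at both ages overlapped.

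The CD8 beta gene did not share this pattern. Cd8b1 was at 0.353, 0.485, 1.12 and 1.07 CPM in P36 jejunum replicates 1 to 4 (6, 11, 25 and 20 counts) and had 0 counts in all 4 P6 jejunum libraries, which allows at most 3 counts in each. Per kilobase of exon, Cd8a was at 8.97 times Cd8b1 in P36 jejunum replicate 1 and 4.07 times in replicate 3. In replicates 2 and 4 the ratio was 0.823 and 0.498, and in the P36 ileum it was 2.71, 0.170, 0.370 and 0.226. The helper T cell coreceptor gene Cd4 was at 0.353, 0.221, 1.93 and 1.01 CPM in P36 jejunum replicates 1 to 4, so replicate 1, with high Cd8a, had 6 counts of Cd4 beside 119 of Cd8a.

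Cd7 (chromosome 11, 121036749 to 121039478, minus strand) was at 11.1, 0.618, 12.6 and 1.01 CPM in P36 jejunum replicates 1 to 4, and at 1.55, 0.680, 0.817 and 0.712 CPM in the P36 ileum. At P6 it was at 0.654, 0.669, 0.683 and 2.20 CPM in the jejunum, where replicate 4 stood apart, and at 0.197, 0.560, 0.217 and 0.196 CPM in the ileum. All 4 P36 ileum libraries were above all 4 P6 ileum libraries, and all 4 P6 jejunum libraries above the P6 ileum. P36 jejunum replicate 2 was the lowest of its group and lay under every P6 jejunum library.

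Itgae (chromosome 11, 73090595 to 73147449, plus strand) varied little outside 2 libraries. It was at 9.06, 1.01, 8.98 and 1.81 CPM in P36 jejunum replicates 1 to 4. The 8 P6 libraries held 0.592 to 1.15 CPM and the P36 ileum 0.633 to 0.995 CPM. Its lowest P36 jejunum library, at 1.01 CPM, was barely above the highest P36 ileum library, at 0.995 CPM.

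Granzyme A gave the most counts of the 7 genes in all 4 P36 jejunum libraries. Gzma (chromosome 13, 113093827 to 113100981, minus strand) was at 47.1, 2.69, 59.4 and 3.36 CPM in P36 jejunum replicates 1 to 4, from 801, 61, 1323 and 63 counts. In the P36 ileum of these mice it was at 2.10, 0.851, 1.39 and 0.791 CPM. The same gene was already present before weaning, at 1.40, 4.51, 2.10 and 5.12 CPM in the P6 jejunum and at 0.247, 1.59, 0.108 and 2.84 CPM in the P6 ileum. P36 jejunum replicates 2 and 4 were inside the P6 jejunum range, and P6 jejunum replicates 2 and 4 held more Gzma than any P36 ileum library.

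Gzmb (chromosome 14, 56258858 to 56262260, minus strand) was at 17.1, 1.94, 25.8 and 1.55 CPM in P36 jejunum replicates 1 to 4, and at 0.995, 0.907, 1.23 and 0.633 CPM in the P36 ileum. In the P6 jejunum it was at 0.83, 0.625, 0.525 and 0.670 CPM. The P6 ileum was nearly empty, with 0, 3, 2 and 0 counts in replicates 1 to 4 (at most 0.129 CPM) where the P6 jejunum of the same mice had 19, 14, 10 and 14. Gzmb was the one gene of the 7 whose P36 jejunum libraries were all above the P6 jejunum. Per kilobase of exon, Gzma exceeded Gzmb by 4.45, 2.24, 3.72 and 3.50 times in P36 jejunum replicates 1 to 4, and by 3.40, 1.51, 1.83 and 2.02 times in the P36 ileum. Gzma had the highest level per kilobase of the 7 genes in 15 of the 16 libraries. The near relatives that could share reads with these genes were barely seen: Gzmk had 7 counts or fewer in every library and Gzmc 2 or fewer, and the pore-forming partner of the granzymes, Prf1 (perforin), 3 or fewer.

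The make-up of the set could be compared within a library. Gzma made up 47.4% of the 1690 counts of the 7 genes in P36 jejunum replicate 1 (95% exact binomial interval 45.0% to 49.8%) and 46.6% of 2840 in replicate 3 (44.7% to 48.4%). It made up 32.6% of 187 counts in replicate 2 (26.0% to 39.8%) and 31.5% of 200 in replicate 4 (25.1% to 38.4%). The intervals, which cover counting error only, do not reach from replicates 1 and 3 to replicates 2 and 4. The share of Cd8a was 7.04% and 7.92% in replicates 1 and 3 and 10.7% and 11.0% in replicates 2 and 4, with intervals that overlap. Cd3e made up 11.0% in replicate 4 (7.02% to 16.2%) and 2.54%, 2.67% and 2.71% in replicates 1, 2 and 3.

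Between P6 and P36 in the jejunum, all 7 genes rose. A gene was called when its edgeR quasi-likelihood test, adjusted over all 13429 genes tested, gave an adjusted p under 0.05 and the log2 fold change was beyond 2. Gzmb had the largest change (log2 fold change 4.11, SE 0.78, adjusted p = 0.000355), followed by Cd3e (3.54, SE 0.78, adjusted p = 0.00123). Gzma (3.10, SE 0.94, adjusted p = 0.0112), Cd3g (2.88, SE 0.79, adjusted p = 0.00598), Cd7 (2.58, SE 0.79, adjusted p = 0.0121), Itgae (2.58, SE 0.57, adjusted p = 0.00134) and Cd8a (2.52, SE 0.69, adjusted p = 0.00646) were also higher at P36. Over all genes tested, 7.86% were called higher at P36 in this comparison. The groups did not overlap for 1 of the 7 genes, Gzmb, where 30.9% of all genes tested did not overlap in this direction.

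These folds rest largely on 2 libraries. Without P36 jejunum replicates 1 and 3, left out together after the values had been seen, 1 of the 7 genes was called, Cd3e (log2 fold change 2.20, adjusted p = 0.0478), against 7.12% of all genes called higher in that fit. The P36 jejunum libraries left in that fit held Cd3e at 0.221 CPM (replicate 2, inside the P6 range) and 1.17 CPM (replicate 4). Gzmb was then at 1.47 (adjusted p = 0.0570), Itgae at 0.78 (adjusted p = 0.166), Cd3g at 0.70 (adjusted p = 0.487) and Cd8a at 0.38 (adjusted p = 0.662), while Gzma was at -0.04 (adjusted p = 0.981) and Cd7 at -0.29 (adjusted p = 0.758). Over all libraries, Cd3e reached the expression filter's 0.503 CPM in 3 P36 jejunum, 3 P36 ileum and 0 P6 libraries. It was thus tested only through the age where it was higher, so its calls with age are not separate support for a rise. The same holds for Gzmb, which reached 0.503 CPM in 3 P6 jejunum, 0 P6 ileum, 4 P36 jejunum and 4 P36 ileum libraries. The filter needs 4 libraries, so Gzmb passed it only through P36. With single libraries left out, Cd8a was at 1.92 without P36 jejunum replicate 3 (adjusted p = 0.0296), under the fold minimum, and Gzma and Gzmb at 2.51 and 3.43 without it, and Cd3e and Cd7 at 4.23 and 3.23 without P6 jejunum replicate 4. A limma-voom fit with the mouse as a random block called 4 of the 7, Cd3e, Cd3g, Gzmb and Itgae.

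**Figure D2:**
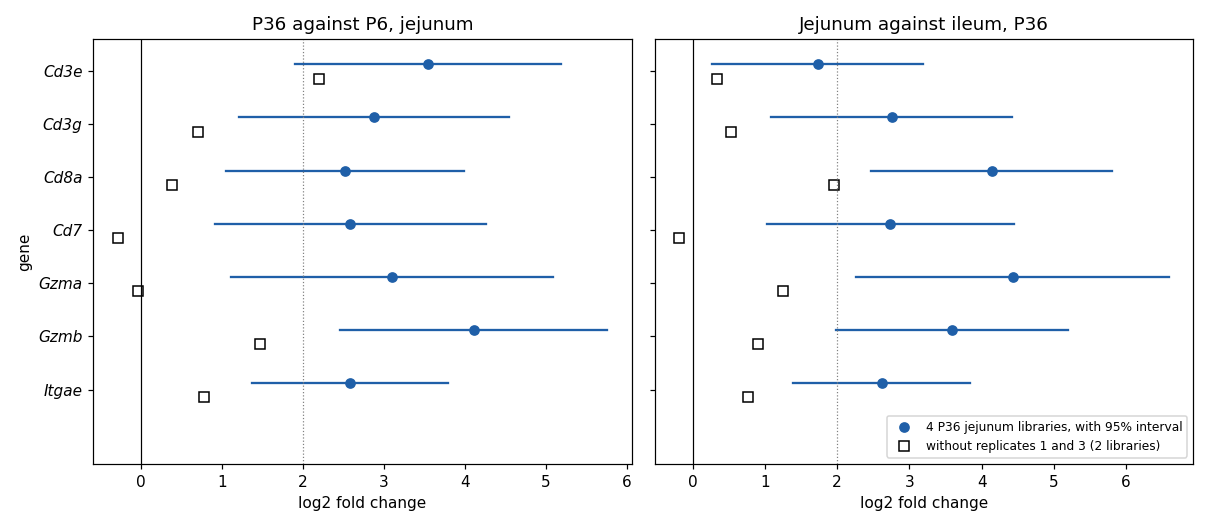
Log2 fold change of each gene, P36 against P6 in the jejunum (left) and jejunum against ileum at P36 (right). Filled circles with 95% intervals use all 4 P36 jejunum libraries, and open squares leave out replicates 1 and 3; the dotted line marks the fold minimum of 2 and every square lies to the left of its circle.

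In the ileum, Gzmb rose with age, from at most 3 counts per library at P6 to 18, 16, 30 and 8 counts in the P36 libraries (a log2 fold change of 3.85, with SE 1.07 and adjusted p = 0.00644), so that its fold depends on how values near 0 are handled. It was the 1 gene of the 7 called higher, where 6.4% of all genes tested were. Gzmb reached the expression filter's 0.503 CPM in 0 P6 ileum and 4 P36 ileum libraries and passed only through P36. Its call is therefore not separate support for a rise. Cd7 was at 1.64 (SE 0.89, adjusted p = 0.129), although its groups did not overlap, and Cd3e at 1.15 (SE 0.77, adjusted p = 0.216). Cd3g (0.15), Gzma (0.10) and Itgae (0.06) had adjusted p of 0.893, 0.940 and 0.941. Cd8a was lower in the P36 ileum, at -0.89 (SE 0.81, adjusted p = 0.370), and at -0.11 without P6 ileum replicate 4. Groups of 2 of the 7 genes, Cd7 and Gzmb, did not overlap, against 20.8% of all genes tested. The limma-voom fit with the mouse as a random block gave Gzmb an adjusted p of 0.0996.

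Between the regions at P36, 6 of the 7 genes were higher in the jejunum, where 2.06% of all genes tested were. The largest differences were those of Gzma (log2 fold change 4.43, SE 1.02, adjusted p = 0.00711) and Cd8a (4.14, SE 0.79, adjusted p = 0.00182). Gzmb differed by 3.59 (SE 0.76, adjusted p = 0.00395), Cd3g by 2.75 (SE 0.79, adjusted p = 0.0252), Cd7 by 2.74 (SE 0.80, adjusted p = 0.0289) and Itgae by 2.62 (SE 0.58, adjusted p = 0.00545). Cd3e was at 1.73 (SE 0.69, adjusted p = 0.105). The groups of 4 genes, Cd8a, Gzma, Gzmb and Itgae, did not overlap, against 13.5% of all genes tested.

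Within mice 2 and 4, outside the 2 high libraries, most genes were also higher in the jejunum, at smaller ratios. The jejunum exceeded the ileum in 26 of 28 gene-by-mouse pairs at P36, and the 2 exceptions, Cd3e and Cd7, were both in mouse 2. These pairs are 7 genes that vary together in 4 mice and not 28 separate observations. The share over all genes was not computed. Cd8a was 21.1, 5.19, 27.5 and 7.41 times higher in the jejunum of mice 1 to 4, and Gzma 22.4, 3.16, 42.8 and 4.24 times. Gzmb was 17.1, 2.14, 21.0 and 2.44 times higher, and Itgae 9.11, 1.38, 9.16 and 2.86 times. Cd3g was 16.9, 3.89, 7.65 and 1.06 times higher, the last from 11 counts against 7. All 4 mice thus had the same direction for Cd8a, Gzma, Gzmb, Itgae and Cd3g, with mice 1 and 3 larger.

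**Figure D3:**
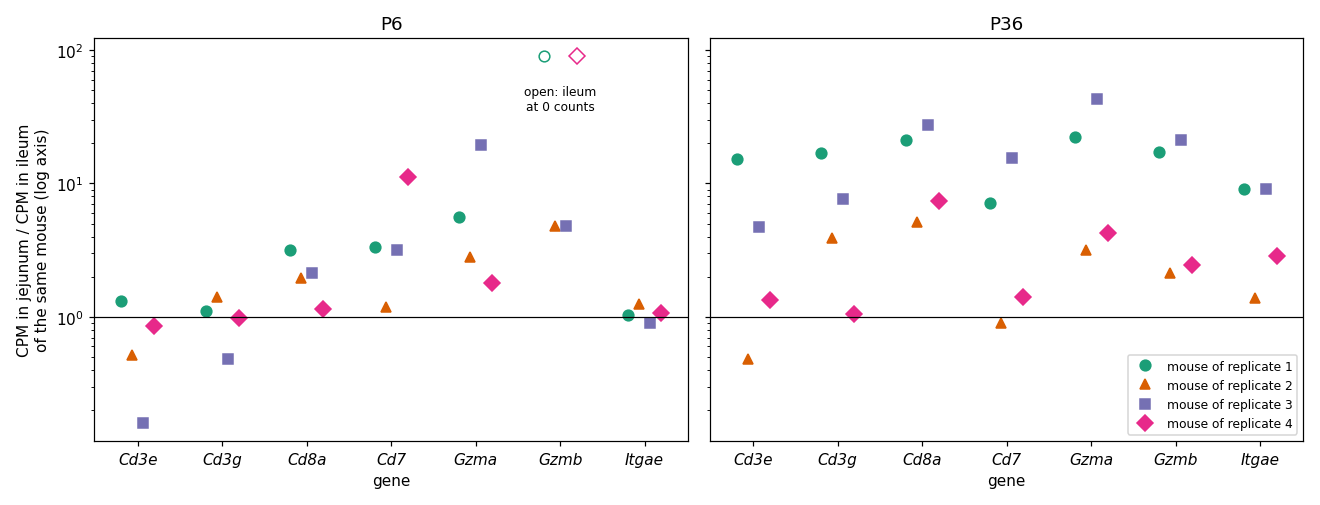
Ratio of CPM in the jejunum to CPM in the ileum of the same mouse (log axis) for each gene at P6 and P36; each symbol is 1 mouse and open symbols mark an ileum library at 0 counts. At P36, 26 of 28 ratios were above 1, and Gzma reached 42.8 in mouse 3.

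Without P36 jejunum replicates 1 and 3, edgeR called 0 of the 7 genes between regions at P36 (1 at an unadjusted p under 0.05), against 1.57% of all genes in that fit, and the values were 1.96 for Cd8a (adjusted p = 0.0815), 1.25 for Gzma, 0.90 for Gzmb, 0.76 for Itgae, 0.53 for Cd3g, 0.34 for Cd3e and -0.19 for Cd7 (adjusted p from 0.361 to 0.926). With all libraries and the mouse as a replicate block, Cd7 was at 2.05 (adjusted p = 0.0798) and the other 5 calls stood. Calls of Cd3g were lost without any 1 of P36 jejunum replicates 1 and 3 and P36 ileum replicates 1, 2 and 4 (adjusted p up to 0.0846), and those of Cd7 without any 1 of P36 jejunum replicates 1 and 3 and P36 ileum replicates 2, 3 and 4 (up to 0.0957). Without P36 jejunum replicate 3, Cd8a, Gzma and Gzmb were at 3.49, 3.79 and 2.86. The limma-voom fit with the mouse as a random block called 2 genes, Cd8a and Itgae.

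Before weaning, Gzmb was the 1 gene of the 7 called between regions, higher in the jejunum (log2 fold change 3.33, SE 1.10, adjusted p = 0.0353), where 2.2% of all genes tested were. Its jejunum and ileum counts, 57 and 5 over 4 libraries each, did not overlap. The call was lost without any 1 of P6 jejunum replicates 1, 2 and 4 and P6 ileum replicates 1, 3 and 4 (adjusted p up to 0.0845), the log2 fold change was 4.06 without P6 ileum replicate 2, and the limma-voom fit gave an adjusted p of 0.158. Cd7 was at 1.80 (SE 0.88, adjusted p = 0.148) with groups that did not overlap, and Gzma at 1.43 (SE 0.96, adjusted p = 0.298), higher in the jejunum of 4 of 4 mice. Cd8a was at 0.73 (SE 0.73, adjusted p = 0.492), also higher in 4 of 4 mice. Itgae (0.09), Cd3g (0.02) and Cd3e (-0.67) had adjusted p of 0.922, 0.989 and 0.603. Groups of 2 of the 7 genes did not overlap in this direction, against 15% of all genes tested, and the jejunum exceeded the ileum in 22 of 28 gene-by-mouse pairs. The pairs are again 7 genes in 4 mice, and no share over all genes was computed for them.

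The P6 mice also differed among themselves. Replicate 4 held the highest value of 6 of the 7 genes in the P6 jejunum and of 5 in the P6 ileum. The share of all genes highest in replicate 4 was not computed, so these counts are not set apart from the rest of the genes. The labels give 2 of the P6 mice identifiers that begin L41800 (replicates 1 and 3) and 2 that begin L42150 (replicates 2 and 4), without saying what the prefix marks. In the P6 jejunum, both L42150 libraries were above both L41800 libraries for 3 of the 7 genes, Cd3g, Gzma and Itgae, against 28.5% of all genes tested. In the P6 ileum this held for 4 genes, Cd3g, Cd8a, Gzma and Itgae, against 20.6% of all genes. These are 7 genes in the same 4 mice, and neither count was tested against the share over all genes. Gzma was at 4.51 and 5.12 CPM in the L42150 jejunum and 1.40 and 2.10 CPM in the L41800 jejunum. Summed CPM of 12 pan-leukocyte markers moved the same way in the P6 ileum, at 29.0 and 30.3 CPM in the L42150 mice and 11.1 and 11.8 CPM in the L41800 mice, and its part in these values was not tested.

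Whether the change with age differed between regions was tested by the interaction of region and age. With edgeR, 0 of the 7 genes had an adjusted p under 0.05, where 8.69% of all genes tested had, and 5 had an unadjusted p under 0.05. Cd8a (difference of log2 fold changes 3.41, SE 1.06, adjusted p = 0.0599) and Itgae (2.52, SE 0.81, adjusted p = 0.0680) were nearest to the threshold. Cd3g was at 2.73 (adjusted p = 0.158), Gzma at 2.99 (adjusted p = 0.200), Cd3e at 2.40 (adjusted p = 0.206), Cd7 at 0.94 (adjusted p = 0.675) and Gzmb at 0.26 (adjusted p = 0.968). With the mouse as a replicate block Cd8a passed (3.05, adjusted p = 0.0167), and both Cd8a and Itgae passed with DESeq2 (adjusted p = 0.0128 and 0.0238). Both also passed when P36 jejunum replicate 2 or replicate 4 was left out, and without replicates 1 and 3 Cd8a was at 1.20 and Itgae at 0.65.

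The wider T cell and cytotoxic genes were counted from lists chosen with earlier results of these data known. The expression filter kept 11 of 22 counted genes of the T cell receptor list, 9 of 22 granule genes and 7 of 18 natural killer type receptors. It kept 16 of 21 homing genes and 6 of 12 cytokine receptors. Genes low at P6, such as Cd8b1 (at most 0.172 CPM) and Ctla4 (at most 0.049 CPM), passed through P36 libraries. Counts and medians with age over the tested genes thus lean towards genes higher at P36. Of 11 tested genes of the T cell receptor complex and its signalling, 6 rose with age in the jejunum (median log2 fold change 2.19, against -0.01 over all genes tested). Among them were Cd8b1, Lax1, Sh2d2a, Cd4 and Skap1. Lax1, a membrane adaptor, was at 1.47, 0.353, 2.65 and 1.97 CPM in P36 jejunum replicates 1 to 4. Replicate 4, low in the 7 genes, was thus not low in Lax1. Without replicates 1 and 3, 3 of 12 tested genes of this list were higher at P36 and 1 was lower. The list median was then 1.13, against 0.05 over all genes in that fit. The fit without replicates 1 and 3 filtered the genes anew and tested 14039. Its list counts and medians, here and below, thus cover a different set of genes.

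Of 9 tested granule and effector genes, 5 rose with age in the jejunum, Ctsw, Srgn, Tnf, Ccl5 and Nkg7, and 1 fell, Serpinb9, a granzyme B inhibitor also made by other cells (median 2.90, or 2.72 with a gene at 0 in a group set to its bound of 3 counts per library). Over all genes tested, 8.59% were called lower with age in the jejunum. Ccl5, a chemokine of activated T cells, was at 10.1, 0.662, 11.8 and 0.693 CPM in P36 jejunum replicates 1 to 4 and at 0.995 CPM or less in the P36 ileum. Nkg7, a cytotoxic granule protein, was at 2.53, 0.485, 3.64 and 0.746 CPM in the same 4 libraries. Ccl5, Ctsw and Nkg7 were higher in the P36 jejunum than the P36 ileum (adjusted p = 0.0143, 0.0158 and 0.0325). Over all genes, 2.06% were called higher and 1.55% lower in that comparison. Of the 9, edgeR called 0 between regions without replicates 1 and 3 (1 at an unadjusted p under 0.05). The list median between regions was -0.26 without them and 0.16 with all libraries. Without replicates 1 and 3, 2 genes of the list, Tnf and Rab27a, were called higher with age and 1 lower (median log2 fold change 1.22).

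Of 7 tested natural killer type receptor genes, 5 rose with age in the jejunum (median 2.18), and without replicates 1 and 3 edgeR called 0 of 8 (0 also at an unadjusted p under 0.05). The median log2 fold change with age without them was 1.14. Cd160, a receptor found on intraepithelial lymphocytes, was at 2.94, 0.618, 2.29 and 1.07 CPM in P36 jejunum replicates 1 to 4. The adaptor Tyrobp was at 2.65, 0.750, 4.58 and 0.906 CPM. Cd160 and Tyrobp were also higher in the jejunum than the ileum at P36 (adjusted p = 0.0426 and 0.0390). With replicates 1 and 3 left out, edgeR called 0 of 8 between regions (0 also at an unadjusted p under 0.05). The list median between regions was 0.58 without them and 2 with all libraries.

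Of 16 tested homing and residency genes, 11 rose with age in the jejunum and 1 fell (median 2.75). Without replicates 1 and 3 the counts were 7 higher and 1 lower of 17 (median 2.10). Gpr55, a lipid receptor of lymphocytes that is also made elsewhere, was at 9.77, 7.72, 9.43 and 7.03 CPM in P36 jejunum replicates 1 to 4. Rgs1, a regulator of G protein signalling found in lymphocytes of tissues, was at 5.00, 1.15, 8.13 and 2.29 CPM, with replicates 1 and 3 the highest. Itgb7, the integrin chain that pairs with CD103, was at 2.00, 0.927, 5.07 and 3.84 CPM, with replicate 4 above replicate 1. Ccr9, the receptor that guides lymphocytes to the small intestine, was at 2.06, 1.68, 2.69 and 1.17 CPM (log2 fold change with age 1.84, adjusted p = 0.00359, under the fold minimum). Between regions at P36, edgeR called 0 of the 16 (5 at an unadjusted p under 0.05), and DESeq2 and limma-voom 0 each. The edgeR fit called 0 of 17 without replicates 1 and 3 (3 at an unadjusted p under 0.05). The list median between regions was -0.32 without them and 0.43 with all libraries.

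With age in the ileum the same lists were counted, and the difference between regions was not tested over the lists. Of the T cell receptor list 1, Txk, was called, in the lower direction. Of the granule list 2, Unc13d and Tnf, were higher, and of the homing list 1 gene was higher and 1, Gpr15, lower. Of the natural killer type receptors edgeR called 0 (1 at an unadjusted p under 0.05), DESeq2 0 and limma-voom 1. Over all genes tested, 10% were called lower in this comparison.

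Transcription factors and cytokine receptors of lymphocytes held genes that epithelium also makes. Of 11 tested transcription factors 3 rose (Runx3, Ikzf3 and Ikzf1) and 4 fell (among them Bhlhe40, Id2 and Nfatc2) with age in the jejunum, and Id2 alone stood at 188 to 292 CPM at P6. Without replicates 1 and 3, edgeR called 4 of the 11 lower and 0 higher (2 higher at an unadjusted p under 0.05). Of 6 tested cytokine receptors 4 rose, Il2rg, Ctla4, Il21r and Il10ra (median 2.94, or 2.26 with a gene at 0 in a group at its bound). In the fit without replicates 1 and 3, 3 of 8 rose, Il2rg, Il7r and Il18r1. Of 12 tested epithelial partners of these lymphocytes 2 rose, Ccl25 and Il18. Il2rg, the shared receptor chain of several interleukins, was at 3.00, 0.485, 5.93 and 2.13 CPM in P36 jejunum replicates 1 to 4. The epithelial chemokine gene Ccl25, the partner of Ccr9, was at 582, 540, 546 and 569 CPM in the same libraries, and Il15 at 26.8, 24.7, 21.2 and 23.6 CPM, so neither followed the division of the 7 genes.

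Markers of other cells were read beside the 7 genes in the P36 jejunum. The summed CPM of the 7 genes was 99.4, 8.25, 127.5 and 10.7 in replicates 1 to 4. Pan-leukocyte markers (12 genes, none at 0) summed to 61.8, 16.9, 131.6 and 49.1 CPM, and their best known member Ptprc (CD45) was at 13.8, 2.91, 25.5 and 7.30 CPM. B and plasma cell markers (13 genes) summed to 27.4, 6.53, 97.1 and 44.0 CPM, with replicate 4 above replicate 1, and in the P36 ileum to 7.63, 21.8, 63.1 and 79.5 CPM. The highest ileum sums of B cell markers, in replicates 3 and 4, thus came with 6.45 and 4.35 CPM of the 7 genes. Smooth muscle and fibroblast markers were at 14.1, 17.5, 14.0 and 62.5 CPM in the P36 jejunum, and the epithelial sum at 13949, 13484, 12736 and 13143 CPM. Between regions at P36, edgeR called 0 of the 12 pan-leukocyte genes (1 at an unadjusted p under 0.05) and 0 of the 11 tested B and plasma cell genes (0 at an unadjusted p under 0.05), and DESeq2 and limma-voom called 0 in both lists. With age in the jejunum all 12 pan-leukocyte genes (6 without replicates 1 and 3) and all 11 B and plasma cell genes (8 without them) rose. In the ileum 10 of the 11 B and plasma cell genes rose, while edgeR called 0 of the 12 pan-leukocyte genes (4 at an unadjusted p under 0.05), DESeq2 1 and limma-voom 0. The part of other leukocytes in the results for the 7 genes was not tested.

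**Figure D4:**
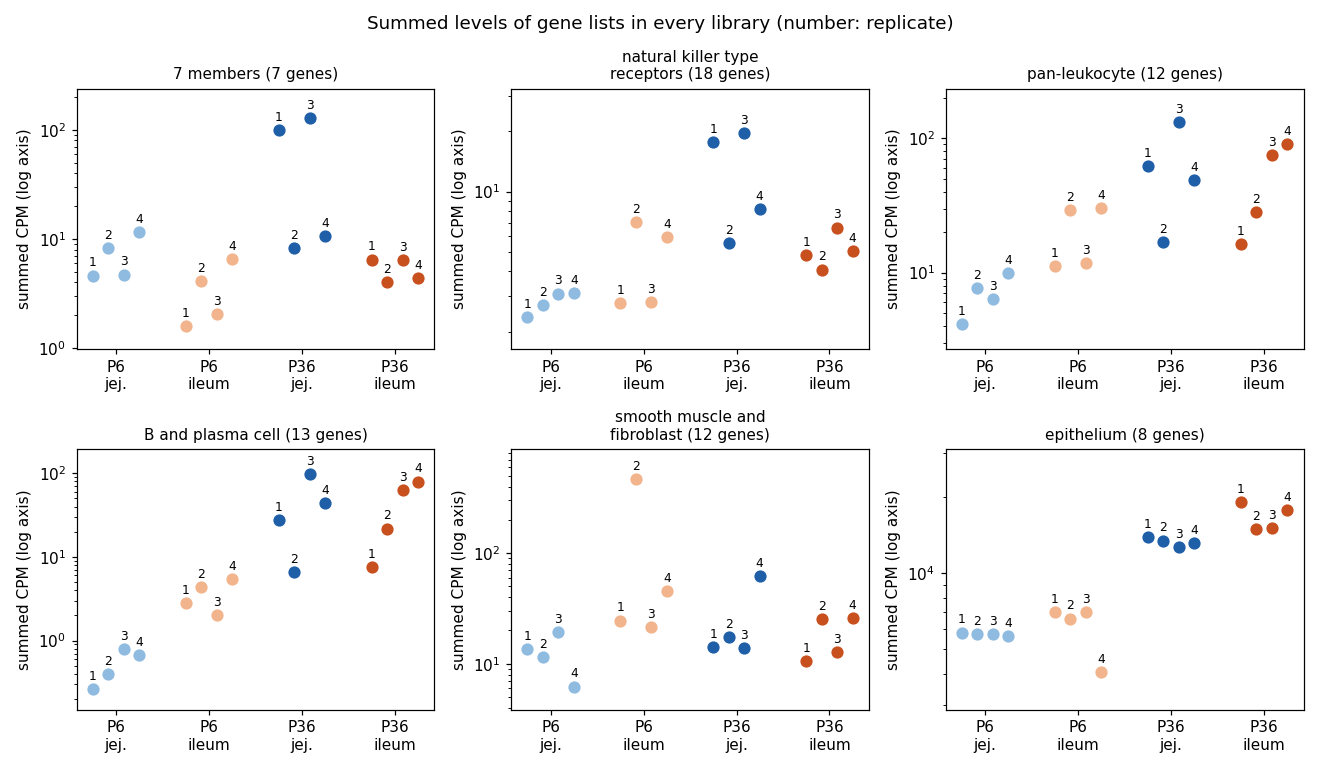
Summed CPM (log axis) of the 7 genes and of 5 marker lists in each library, with its replicate number. The 7 genes and the natural killer type receptors were highest in P36 jejunum replicates 1 and 3, whereas B and plasma cell markers were also high in P36 ileum replicates 3 and 4 (63.1 and 79.5 CPM).

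The remaining marker lists were read in the same way. In macrophage and dendritic cell markers the P6 sums of 174.9 to 515.9 CPM were mostly Csf1r (152 to 498 CPM at P6 and at most 3.55 CPM at P36). C1qa, a defining macrophage gene, was at 0.315 to 0.625 CPM in the P6 jejunum and 0.0981 to 4.39 CPM in the P6 ileum. In P36 jejunum replicates 1 to 4 C1qa was at 0.0588, 0.265, 1.80 and 1.17 CPM. Mast cell markers summed to 2.12 to 7.09 CPM and endothelial markers to 1.15 to 3.41 CPM in the P36 jejunum. Enteric neuron and glia markers summed to 3.44 to 8.71 CPM there. With age in the jejunum, 2 of 8 epithelial, 1 of 7 smooth muscle and fibroblast and 4 of 9 macrophage and dendritic cell genes were called higher. Called lower were 1 smooth muscle and fibroblast gene (Pdgfra), 1 macrophage and dendritic cell gene (Csf1r), 2 of 5 endothelial and 2 of 3 enteric neuron and glia genes. Without replicates 1 and 3, 3 of 12 macrophage and dendritic cell genes were higher and 1 lower. Of the 2 tested mast cell genes edgeR, DESeq2 and limma-voom called 0 (0 at an unadjusted p under 0.05).

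Genes were ranked by how closely their log2 CPM followed the mean of the 7 over the 8 P36 libraries, as a description of libraries that share depth and tissue. The closest was Ctsw, a protease of cytotoxic lymphocytes (Pearson r = 0.980), followed by Fyb (0.974), Txk (0.964), Cyp2c70 (0.961), Nkg7 (0.960), Ccl5 (0.959), Mcam (0.951), 4833419F23Rik (0.946), Tyrobp (0.941) and Arrb2 (0.941). Of these, Cyp2c70 and 4833419F23Rik rested on 16 and 11 counts over the 8 libraries, with 0 counts in several. Over the 6 libraries other than P36 jejunum replicates 1 and 3, r was 0.961 for Nkg7, 0.732 for Ctsw, 0.545 for Ccl5 and 0.332 for Mcam. Txk, a T cell kinase, came before any other gene of the T cell receptor list. Among the 21 pairs of the 7 genes, r ranged from 0.754 to 0.990 over the 8 libraries and from -0.31 to 0.944 over the other 6. Over these 6, pairs among Cd8a, Gzma, Gzmb and Itgae stayed at 0.718 to 0.944. Pairs with Cd3e, Cd3g or Cd7 ran from -0.31 to 0.534, so the common order of all 7 genes rested mainly on 2 libraries.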

How the data were processed

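RNA of EDTA-released, unsorted epithelium was sequenced after stranded mRNA library preparation (Kapa, NovaSeq). Per the labels, reads were trimmed with Trimmomatic 0.38, aligned to mm10 with STAR 2.5.3 and counted with Subread 1.6.3 (featureCounts). The authors deposited raw counts per gene, 1 table per library, counted over exons in pairs with the reverse strand setting. From these counts, TMM-scaled CPM was computed, and edgeR 4.0.16 (R 4.3.3) quasi-likelihood tests with Benjamini-Hochberg adjustment were fitted over all 4 groups after filterByExpr, which kept 13429 of 24421 genes, among them all 7. Cd3e reached the filter's 0.503 CPM in 0 of 8 P6 libraries, and Gzmb in 3 P6 jejunum and 0 P6 ileum libraries, under the 4 needed. SE is the log2 fold change divided by the square root of F. The fit was tested on simulated data. Alternatives used limma 3.58.1 and DESeq2 1.42.0, other scalings and filters, sex or the mouse as covariates and libraries left out in turn. Jejunum and ileum libraries are paired because they come from the same mouse, and their deviations from group means correlated at 0.157 to 0.391 within mice. No library was a copy of another. The 7 genes, the lists and the rule for named genes (all 7, up to 4 genes a list, those lowest in adjusted p with age in the jejunum, fixed T cell genes and the closest patterns) were chosen with earlier results of these data known; other genes were named after their values were seen. Some called genes of the lists are counted or left out without a name and are not reported here.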

Additional observations from a re-analysis of the deposited data

Results flagged for a closer look

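Single libraries lay far from the other 3 of their group in 4 of the 28 combinations of gene and group examined with Dixon's criterion, where chance alone flags about 1 group in 20. Cd7 was at 2.20 CPM in P6 jejunum replicate 4, at 0.560 CPM in P6 ileum replicate 2 and at 1.55 CPM in P36 ileum replicate 1, each above the other 3 libraries of the group. Cd8a was at 1.13 CPM in P6 ileum replicate 4. The P36 jejunum was not among the 4, since its 2 high libraries lie close to each other.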

How the results depend on the processing

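P-values of the main fit rest on the spread between libraries within the groups, with 4 mice per age and each library taken as separate. They leave out the pairing of jejunum and ileum libraries from the same mouse. Several of the 7 genes rest on few counts at P6, which limits the precision of their folds. The call counts moved most without both high P36 jejunum libraries, chosen after seeing the data: 1 of 7 with age in the jejunum and 0 between regions at P36. With the limma-voom fit and the mouse as a random replicate block, the counts were 4 with age in the jejunum, 0 with age in the ileum, 0 between regions at P6 and 2 between regions at P36. For the interaction, DESeq2 and scaling by library totals each called 2, and the mouse as a replicate block called 1. Leaving out single libraries gave 0 to 1 calls between regions at P6 and 0 to 2 for the interaction. The fixed replicate block lost the Cd7 call between regions at P36 and gained Cd8a in the interaction, and changed no other of their within-mouse calls.

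Directions turned only for changes near 0 or without the 2 high libraries. Without both, Cd7 was at -0.29 with age in the jejunum, -0.19 between regions at P36 and -2.01 in the interaction, Gzma at -0.0365 with age in the jejunum and -0.22 in the interaction, and Gzmb at -2.44 in the interaction. Between regions at P6, Cd3g was at -0.27 and Itgae at -0.19 with library totals, and Cd3g at -0.0165 with the mouse as a replicate block and -0.0897 with limma-voom. The Gzmb interaction was at -0.39 with the replicate block and -0.84 with limma-voom. With single libraries left out, values ran from -0.37 to 0.64 for Cd3g, from -0.25 to 0.93 for Gzma and from -0.0472 to 0.23 for Itgae with age in the ileum, from -0.41 to 0.51 for Cd3g and from -0.0641 to 0.26 for Itgae between regions at P6, and from -0.47 to 0.65 for the Gzmb interaction. The cause was not tested. Cd3e was not tested with a mean of at least 1 CPM required, nor in most fits of only 8 libraries.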
